A study of Mus musculus with 12 samples.

Results

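The splicing kinases examined here were 8 genes taken by name from the deposited count table of 34513 mouse genes: Clk1, Clk2, Clk3, Clk4, Srpk1, Srpk2, Dyrk1a and Prpf4b. All 8 were found, with 1164 to 10374 counts in each library, and all 8 were among the 18338 genes that passed the expression filter.

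Bulk RNA-seq was performed on 3 mouse lines grown alone in culture: Melan-A, a nontumorigenic immortal melanocyte line, B16F0, a tumorigenic melanoma line, and B16F10, a metastatic derivative of B16. Each line was left untreated (control) or treated with SX-682, a small-molecule antagonist of the chemokine receptors CXCR1 and CXCR2, with 2 libraries in each of the 6 groups and 12 libraries in all. The question was how the drug changes transcription in melanocytic cells without immune or stromal cells around them. The labels give no dose, vehicle or duration for these cultures. They also do not say whether the 2 libraries of a group came from separate cultures, so p-values measure only the spread between these libraries, which may be technical. Each line is a single established line, so a difference between lines is a difference between these cultures.

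SR proteins are RNA-binding splicing factors whose arginine- and serine-rich tails must be phosphorylated for them to enter the nucleus and assemble on pre-mRNA. SRPK1 and SRPK2 phosphorylate these tails mainly in the cytoplasm and so drive nuclear import, whereas the CLK kinases act in the nucleus, where they release SR proteins from storage speckles. The CLK genes also make transcripts with retained introns or skipped exons, which stay in the nucleus or are degraded, so a gene-level count of a CLK gene is not a count of the mRNA that is translated. DYRK1A is a dual-specificity kinase found in speckles that phosphorylates splicing factors as well as cell cycle and neuronal proteins, and Prpf4b encodes PRP4 kinase, which is needed to activate the spliceosome.

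The gene models show how much of this lies in 1 count. In GENCODE M21 (GRCm38), Clk1 (ENSMUSG00000026034.17, chr1:58410189-58424066, minus strand) has 13 transcripts, of which 1 is protein-coding, 2 are marked for nonsense-mediated decay and 7 retain an intron. Clk4 (ENSMUSG00000020385.16, chr11:51261730-51281766, plus strand) has 14, of which 4 are protein-coding, 3 are decay targets and 7 retain an intron. Clk2 (chr3:89164795-89176921) and Clk3 (chr9:57750624-57765860) have 11 and 9 transcripts, with 4 retained-intron forms each. Srpk1 lies at chr17:28587648-28622709, Srpk2 at chr5:23503264-23684617, Dyrk1a at chr16:94570010-94695517 and Prpf4b at chr13:34875302-34906064. Reads were counted over all exons of all these transcripts, so exchange between a coding and a retained-intron form was not measured.

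The CLK kinases are also called LAMMER kinases, after a motif of their catalytic domain, and the coding bases around it show how far reads of the 4 genes can be told apart. Each stretch below holds 60 bases inside 1 coding exon and is shown because Clk1 and Clk4 moved alike. The motif, or its counterpart in Clk3, lies in the middle. The middle codons of Clk3 read LVMMEK in place of LAMMER. Capitals mark the bases that differ from Clk1. Clk1 is on the minus strand of chr1:58412967-58413026, Clk4 on the plus strand of chr11:51280358-51280417, Clk2 on the plus strand of chr3:89175392-89175451 and Clk3 on the minus strand of chr9:57752135-57752194.
Clk1: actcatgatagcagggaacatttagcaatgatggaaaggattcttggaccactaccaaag
Clk4: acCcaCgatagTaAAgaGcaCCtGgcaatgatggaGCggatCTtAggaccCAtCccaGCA
Clk2: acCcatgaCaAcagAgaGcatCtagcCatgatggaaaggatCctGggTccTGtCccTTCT
Clk3: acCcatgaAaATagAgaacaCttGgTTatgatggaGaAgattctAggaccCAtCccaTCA
Clk4 differed from Clk1 at 20 of the 60 bases, Clk2 at 17 and Clk3 at 18, although this is the stretch that gives the family its name. Over whole transcripts, 0.0711% of the 50-base words of Clk1 and 0.177% of those of Clk4 also occurred in another gene, and neither gene was the other's main match. Shared words were most frequent for Clk3 (14.1%) and Srpk2 (7.82%), followed by Srpk1 (2.86%). Clk3 shares 15.2% of its exonic bases with Edc3 and Srpk2 6.99% with Kmt2e, both on the opposite strand. Whether the counting used strand is not given in the sources used here, so Clk3 and Srpk2 values may include reads of these partners.

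The 250 bases before the annotated start were searched on both strands for a few short motifs. RefSeq promoter windows were used (GRCm38.p6, 32851 windows), of which 11 belong to 7 of the kinases and none to Clk1. The windows are shown for Clk4, which rose in all 3 lines, and for Clk2, which scarcely moved. Neither window overlaps a GENCODE exon of its own gene, which also holds for some windows of Srpk2 and Dyrk1a. The Clk4 window precedes a RefSeq start but lies inside the GENCODE Clk4 gene, which begins at 51261730. Capitals mark the cAMP response element (TGACGTCA) in Clk4 and the E-box (CACGTG) in Clk2.
Clk4, chr11:51262864-51263113, plus strand: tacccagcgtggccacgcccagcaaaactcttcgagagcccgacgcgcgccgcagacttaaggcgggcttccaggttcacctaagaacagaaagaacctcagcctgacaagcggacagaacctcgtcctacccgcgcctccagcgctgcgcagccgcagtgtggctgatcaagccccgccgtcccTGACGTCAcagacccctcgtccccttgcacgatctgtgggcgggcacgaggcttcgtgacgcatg
Clk2, chr3:89164545-89164794, plus strand: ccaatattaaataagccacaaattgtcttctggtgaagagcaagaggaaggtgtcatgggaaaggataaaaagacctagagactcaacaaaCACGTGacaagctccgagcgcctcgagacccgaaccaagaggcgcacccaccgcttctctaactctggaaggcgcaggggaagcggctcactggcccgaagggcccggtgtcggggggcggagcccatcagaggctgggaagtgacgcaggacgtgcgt
The Clk4 match lay 65 to 58 bases before the RefSeq start, and 1.55% of all windows held this motif. Among the kinases with a window only Clk4 held it, and Clk3 and Dyrk1a, which also rose in all 3 lines, did not. The Clk2 match lay 159 to 154 bases before the start, in a motif found in 6.02% of windows. Prpf4b held an ETS site (CCGGAAGT, 2.88% of windows) at 71 to 64 bases before its RefSeq start, in a window of which 227 of the 250 bases lie in exons of the GENCODE model. The C/EBP-ATF composite (TGATGNAA, 3.45% of windows) and the heat shock element (GAANNTTC, 6.69% of windows) were in none of the 11 windows. The motifs do not overlap each other, and a match describes the letters only.

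Library totals ranged from 48876982 to 85322092 counts. A floor of 3 counts corresponded to 0.033 to 0.0623 CPM (counts per million-count library, TMM-scaled), far under every kinase value. This floor covers counting error only, whereas the 95% intervals below come from the fit and include the spread between libraries. The 7 melanocyte lineage markers were above 3 counts in every group, and their summed level was 1344 to 1374 CPM in Melan-A controls, 18580 to 18664 in B16F0 controls and 24442 to 24470 in B16F10 controls. In the controls, Mitf, Tyrp1, Dct, Pmel and Mlana were lowest in Melan-A and highest in B16F10 like the sum, but Tyr and Sox10 were not. Tyr, the key enzyme of pigment synthesis, was at 0.76 to 0.892 CPM in Melan-A controls. It was at 514 to 517 CPM in B16F0 controls and 65.8 to 70.4 CPM in B16F10 controls. The lineage transcription factor Sox10 was highest in Melan-A, at 655 to 685 CPM, against 445 to 460 in B16F0 and 582 to 589 in B16F10 controls. After SX-682 the sums were 1346 to 1355, 15770 to 15958 and 14947 to 15188 CPM. Markers of fibroblasts, leukocytes, endothelial cells and keratinocytes summed to at most 51.6, 49.8, 2.15 and 0.759 CPM in any library, and the pan-leukocyte gene Ptprc did not exceed 0.255 CPM. The fibroblast sum was 50.7 to 51.6 CPM in Melan-A controls, mostly from Col1a1. It was 15.9 to 16.6 CPM in B16F0 controls and 8.42 to 9.72 CPM in B16F10 controls. The leukocyte sum in Melan-A was 23.1 to 23.2 CPM in the controls and 48.8 to 49.8 CPM with SX-682, mostly from Cd68, which is also a lysosomal gene. Whether cells behind the fibroblast or leukocyte sums contributed to the kinase values was not tested.

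SX-682 treatment raised Clk1 and Clk4 in every line, raised Clk3 and Dyrk1a by less, and lowered Prpf4b and Srpk1. Clk2 moved least, and Srpk2 fell in Melan-A while it rose in both B16 lines. A gene was called at an adjusted p under 0.05 in edgeR's quasi-likelihood test, with Benjamini-Hochberg adjustment over all 18338 genes, and every adjusted p below is from that fit. In Melan-A, 4 of the 8 kinases were higher and 3 lower after SX-682, against 23.4% of all genes tested higher and 24.7% lower. In B16F0, 6 were higher and 2 lower, against 25.1% and 25.0% of all genes. The B16F10 counts were again 6 higher and 2 lower, against 25.5% and 25.3%. The median log2 fold change of the 8 kinases was 0.18 for Melan-A, 0.36 for B16F0 and 0.28 for B16F10, and that of all genes tested was 0 in each line.

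**Figure D1:**
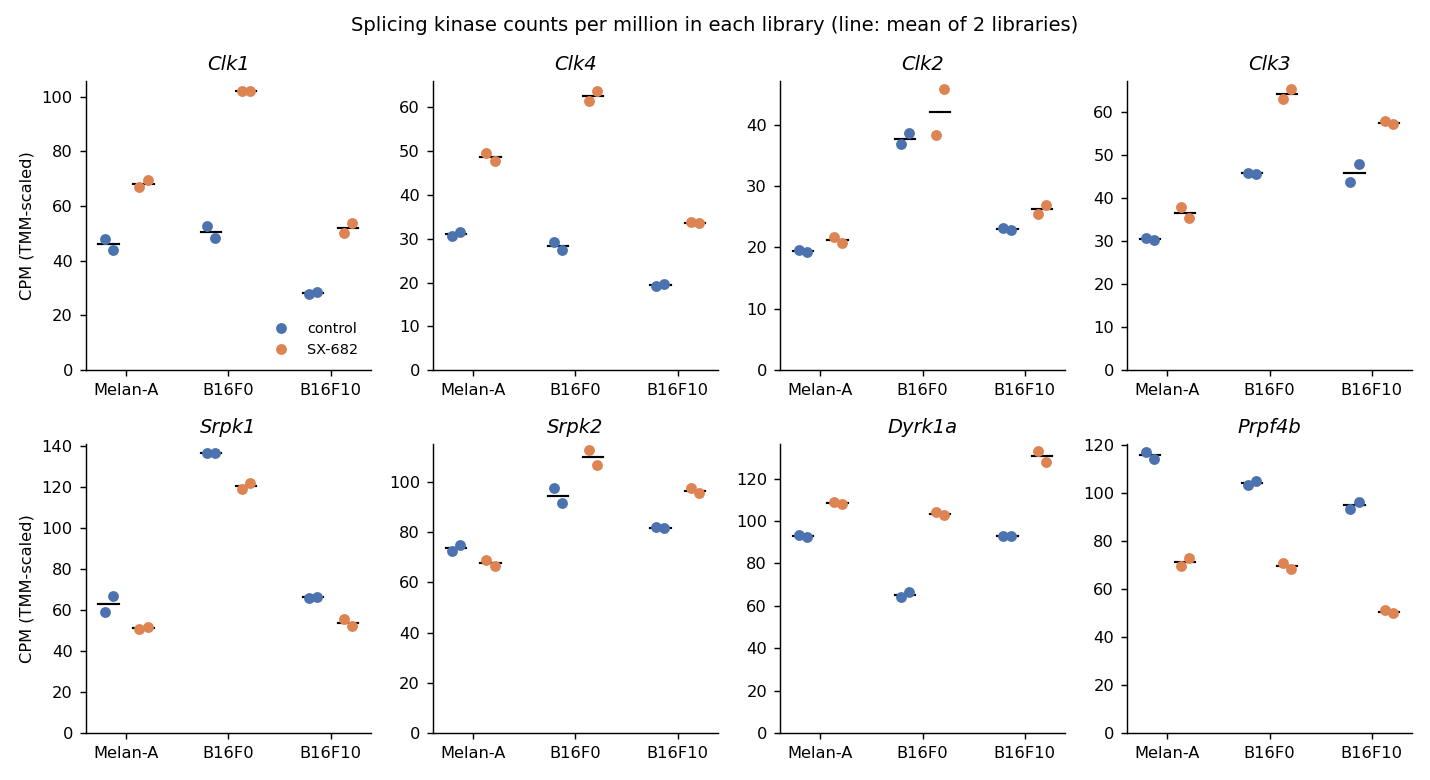
Level of each kinase in CPM (y axis, from 0) in each of the 12 libraries, by line (x axis), with control libraries in blue, SX-682 libraries in orange and a bar at the mean of 2 libraries. Clk1 and Clk4 sit higher and Prpf4b lower after SX-682 in all 3 lines with no overlap, while the Clk2 libraries overlap in B16F0 and lie close together elsewhere.

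Clk1 encodes a nuclear SR protein kinase. Its level in Melan-A was 48 and 44.1 CPM in the controls and 67.1 and 69.4 CPM with SX-682. B16F0 controls had 52.7 and 48.2 CPM, and both SX-682 libraries had 102 CPM. B16F10 started lower, at 27.8 and 28.7 CPM, and reached 50.1 and 53.7 CPM. The treated libraries were above the controls in each line without overlap, and treated B16F10 cells had about the level of untreated Melan-A and B16F0 cells. With 2 libraries per group, such separation says little by itself, because it also occurred for changes not called, such as Clk2 in Melan-A. Its share over all genes is not given here, for this kinase or those below. The change was 1.48-fold in Melan-A (log2 fold change 0.57, SE 0.045, adjusted p = 7.4e-12), 2.01-fold in B16F0 (1.01, SE 0.045, adjusted p = 1.3e-17) and 1.84-fold in B16F10 (0.88, SE 0.051, adjusted p = 4.2e-15). Of all genes tested, 86.4%, 91% and 88.3% had a lower change in these lines. In bulk RNA, more cells carrying a transcript and more of it per cell cannot be told apart, here and below.

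Clk4, the closest relative of Clk1, followed it. Melan-A controls had 30.7 and 31.5 CPM and treated libraries 49.6 and 47.8 CPM. In B16F0 the values were 29.2 and 27.4 CPM before and 61.5 and 63.8 CPM after treatment. In B16F10 they were 19.2 and 19.7 CPM before and 33.8 and 33.6 CPM after. Groups did not overlap in any line, and the untreated order was again lowest in B16F10. The rise was 1.57-fold in Melan-A (adjusted p = 5.6e-13), 2.21-fold in B16F0 (adjusted p = 1.8e-18) and 1.73-fold in B16F10 (adjusted p = 7.7e-14). Clk1 and Clk4 were the 2 kinases whose rise reached a log2 fold change of at least 1 in B16F0, which 4.67% of all genes tested did with a call.

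Clk3 and Clk2 encode the other CLK kinases. Clk3 had 30.7 and 30.2 CPM in Melan-A controls and 37.8 and 35.4 CPM after SX-682. In B16F0 it had 45.9 and 45.5 CPM, and 63.1 and 65.4 CPM after treatment. In B16F10 it had 43.8 and 47.8 CPM, and 57.8 and 57.1 CPM after treatment. The libraries did not overlap in any line, and the rise was 1.2-fold (adjusted p = 1.9e-05), 1.41-fold (adjusted p = 1.5e-10) and 1.25-fold (adjusted p = 4.3e-07). Edc3, which overlaps Clk3 on the other strand, had log2 fold changes of 0.10 (adjusted p = 0.088), -0.08 (adjusted p = 0.23) and -0.39 (adjusted p = 2.3e-07), and its part in the Clk3 counts was not tested.

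Clk2 changed little by comparison. Melan-A controls had 19.6 and 19.2 CPM and treated libraries 21.7 and 20.7 CPM, a log2 fold change of 0.12 (95% interval -0.01 to 0.26, adjusted p = 0.12). These groups did not overlap, although the change was not called. B16F0 controls had 36.9 and 38.6 CPM and treated libraries 38.4 and 45.8 CPM, so the groups overlapped. B16F10 had 23.2 and 22.8 CPM before and 25.5 and 26.9 CPM after treatment. The adjusted p was 0.039 in B16F0 (log2 fold change 0.15) and 0.018 in B16F10 (0.19), and both calls rested on single libraries. Without SX-682 replicate 2 the B16F0 value was 0.03 (adjusted p = 0.81), without control replicate 1 it was 0.12 (adjusted p = 0.23) and without control replicate 2 it was 0.18 (adjusted p = 0.056). In B16F10, leaving out control replicate 1, control replicate 2 or SX-682 replicate 2 gave 0.20, 0.17 and 0.15 (adjusted p = 0.05, 0.11 and 0.15). In Melan-A, the change passed without B16F0 SX-682 replicate 1 (0.13, adjusted p = 0.048).

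**Figure D2:**
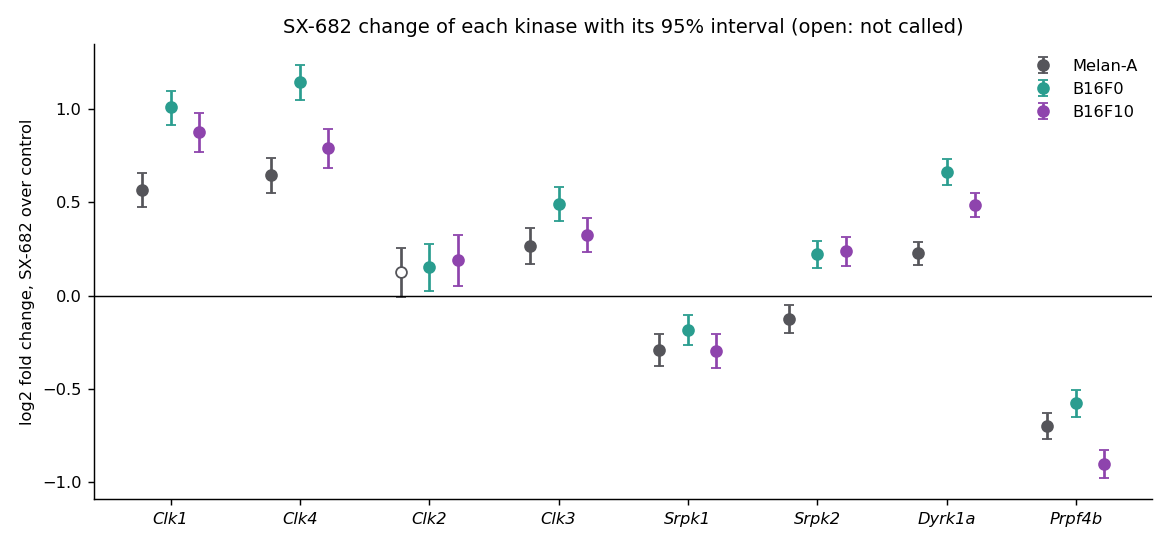
Log2 fold change of SX-682 over control (y axis) for each kinase (x axis) in Melan-A (grey), B16F0 (green) and B16F10 (purple), with bars for the 95% interval and an open point where the adjusted p was not under 0.05. Clk1 and Clk4 lie between 0.57 and 1.15, Prpf4b between -0.91 and -0.58, and only the Srpk2 points lie on both sides of 0.

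On a scale that allows comparison between genes, CPM divided by the exon length in kilobases (RPKM), the summed CLK level was higher in the treated libraries of each line. It was 18.3 ± 0.34 RPKM (SD, n = 2) in Melan-A controls and 25.1 ± 0.35 after SX-682. In B16F0 it was 23.6 ± 0.42 and 38.9 ± 1.5, and in B16F10 16.6 ± 0.41 and 23.9 ± 0.42. The make-up of the family shifted with it. In Melan-A, Clk4 went from 29.3% to 33.4% of the summed level and Clk1 from 31% to 33.4%. In B16F0, the Clk4 share went from 20.6% to 27.8% and the Clk1 share from 26.3% to 32.2%. B16F10 cells showed shares of 20.2% and 24.3% for Clk4 and of 20.9% and 26.7% for Clk1. Clk2 went from 20% to 15.9%, from 30.2% to 20.4% and from 26.2% to 20.7%, although its own level did not go down. Untreated, Clk1 and Clk4 overlapped at the top in Melan-A (31% and 29.3%), and the leading CLK gene was Clk2 in B16F0 (30.2%) and Clk3 in B16F10 (32.7%). After treatment Clk1 led in B16F0 (32.2%), and Clk1 and Clk4 again overlapped in Melan-A, while Clk3 still had the largest share in B16F10 (28.4%). These shares depend on the length taken for each gene, here all exonic bases, and with the longest transcript Clk3 had 37.4% in B16F10 controls.

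**Figure D3:**
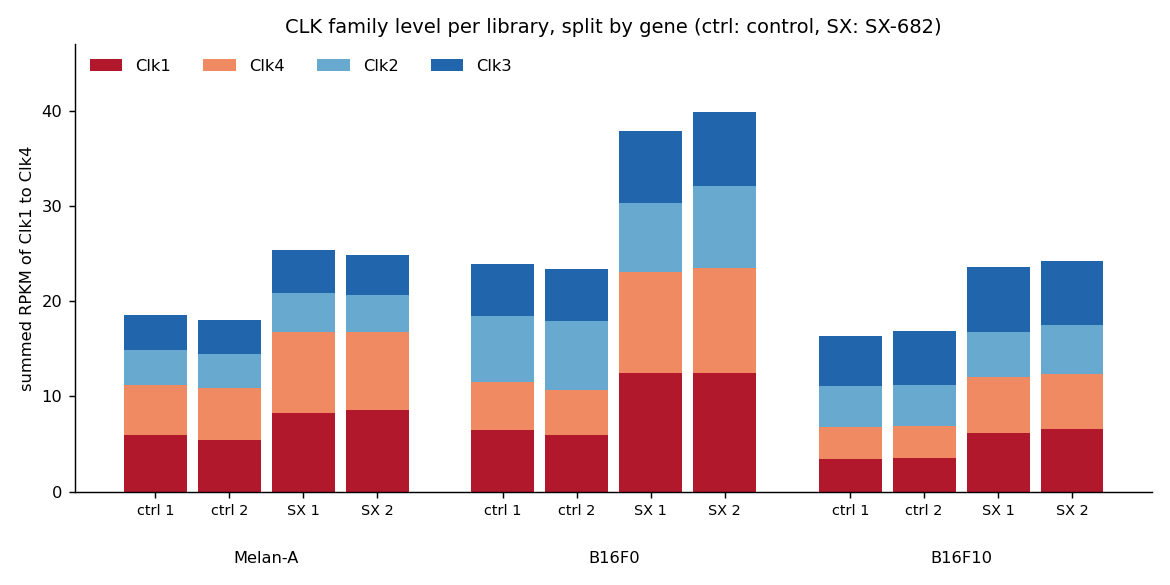
Summed level of Clk1 to Clk4 in RPKM (y axis, stacked from 0) in each of the 12 libraries (x axis; ctrl, control; SX, SX-682), split by gene. The B16F0 stack is the tallest after treatment, at 38.9 RPKM on average against 23.6 before, and the red and orange parts (Clk1 and Clk4) grow most.

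The SRPK genes encode the cytoplasmic SR protein kinases. Srpk1 was lower after SX-682 in every line. Srpk1 had 59 and 66.7 CPM in Melan-A controls and 51 and 51.7 CPM after SX-682. In B16F0 both controls had 137 CPM and the treated libraries 119 and 122 CPM. In B16F10 the values were 66.1 and 66.5 CPM before and 55.5 and 52.3 CPM after treatment. The groups did not overlap. The log2 fold change was -0.29 in Melan-A (adjusted p = 9.5e-07), -0.19 in B16F0 (adjusted p = 0.00021) and -0.30 in B16F10 (adjusted p = 1.1e-06).

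Srpk2 was the only kinase of the 8 called in all 3 lines with directions that differed, a pattern shown by 4.93% of all genes tested. In Melan-A it had 72.5 and 74.9 CPM without and 68.9 and 66.4 CPM with SX-682. B16F0 had 97.6 and 91.6 CPM in the controls and 113 and 107 CPM after treatment, and B16F10 had 82 and 81.8 CPM and then 97.5 and 95.6 CPM. Groups did not overlap in any line. The log2 fold change was -0.12 in Melan-A (SE 0.037, adjusted p = 0.0058), 0.22 in B16F0 (adjusted p = 6.3e-06) and 0.24 in B16F10 (adjusted p = 2.6e-06). The Melan-A call was lost without its control replicate 2 (-0.10, adjusted p = 0.076) or without its SX-682 replicate 2 (-0.09, adjusted p = 0.13). Kmt2e, the partner on the opposite strand, had -0.12 (adjusted p = 0.0024), -0.45 (adjusted p = 1.2e-12) and 0.07 (adjusted p = 0.091). It moved with Srpk2 in Melan-A and against it in B16F0, and its part in the Srpk2 counts was not tested. With Srpk1 down and Srpk2 up in B16F10, the summed SRPK level was 11.3 RPKM in both groups, and the Srpk1 share of it went from 47.5% to 38.5%. In B16F0 the share went from 61.7% to 55% and in Melan-A from 44.3% to 40.9%. Srpk3, the muscle-enriched member of the family, made up 9.44% of the summed level in Melan-A controls and 0.461% and 0.177% in the B16F0 and B16F10 controls. With the longest transcript as length, these shares were 4.42%, 0.201% and 0.0789%. In B16F10, Srpk3 had 2 to 5 counts in the controls and 0 to 2 after SX-682, around the floor of 3 counts. None of the Srpk3 changes was called (adjusted p = 0.86, 0.23 and 0.2).

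Dyrk1a rose in each line, and most in B16F0. Melan-A controls had 93.4 and 92.5 CPM and treated libraries 109 and 108 CPM. B16F0 rose from 64.1 and 66.5 CPM to 104 and 103 CPM, and B16F10 from 93.1 in both controls to 133 and 128 CPM. Replicates lay close together, so the groups stood well apart. The rise was 1.17-fold (adjusted p = 3.7e-07), 1.58-fold (adjusted p = 1.5e-16) and 1.4-fold (adjusted p = 6.3e-14). Untreated B16F0 had the lowest level of the 3 lines, and after treatment its libraries were close to those of treated Melan-A.

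Prpf4b, the gene for the spliceosome-activating PRP4 kinase, fell most. It had 117 and 114 CPM in Melan-A controls and 69.3 and 72.7 CPM after SX-682. B16F0 fell from 103 and 105 CPM to 70.6 and 68.1 CPM, and B16F10 from 93.3 and 96 CPM to 51 and 50 CPM. No treated library reached the lowest control. Treated cells kept 0.615 of the control level in Melan-A (log2 fold change -0.70, adjusted p = 9.3e-17), 0.67 in B16F0 (-0.58, adjusted p = 1.6e-14) and 0.534 in B16F10 (-0.91, adjusted p = 7.8e-19). Only 9.97%, 14.1% and 8.83% of all genes tested had a lower change in the respective line.

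Across the lines, Clk1, Clk4, Clk3 and Dyrk1a were higher in all 3, a pattern of 11.3% of all genes tested, and Srpk1 and Prpf4b were lower in all 3, a pattern of 11.7%. The size of the change was then compared among the lines with a quasi-likelihood F-test on the differences between them. It passed for 6 of the 8 kinases, against 47.4% of all genes tested. These were Dyrk1a (range over lines 0.44 on the log2 scale, adjusted p = 1.2e-08), Srpk2 (0.36, adjusted p = 6.8e-07), Clk4 (0.50, adjusted p = 7.7e-07), Clk1 (0.44, adjusted p = 3.3e-06), Prpf4b (0.33, adjusted p = 1.3e-05) and Clk3 (0.23, adjusted p = 0.012). The estimated rises of Clk1, Clk4, Clk3 and Dyrk1a were each smallest in Melan-A and largest in B16F0. For Prpf4b the estimated fall was largest in B16F10. This F-test does not test the order of the lines. The differences of each B16 line from Melan-A are not given separately here. The test did not pass for Srpk1 (0.11, adjusted p = 0.19) or Clk2 (0.06, adjusted p = 0.86). Clk3 lost its call without B16F0 control replicate 2 (adjusted p = 0.052) or B16F0 SX-682 replicate 2 (adjusted p = 0.065), and Srpk1 passed without Melan-A control replicate 1 (adjusted p = 0.011).

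Between the melanoma lines, the change differed for 3 of the 8 kinases, against 30.3% of all genes tested. The B16F10 change minus the B16F0 change was -0.35 for Clk4 (95% interval -0.50 to -0.21, adjusted p = 0.00021), -0.33 for Prpf4b (-0.43 to -0.22, adjusted p = 7.3e-06) and -0.18 for Dyrk1a (-0.27 to -0.08, adjusted p = 0.0035). Clk4 and Dyrk1a thus rose less, and Prpf4b fell further, in B16F10. For Clk1 the difference was -0.13 (-0.27 to 0.00, adjusted p = 0.15), which passed without B16F0 control replicate 1 (-0.20, adjusted p = 0.035). The difference for Clk3 was at the threshold, at -0.17 (-0.30 to -0.03, adjusted p = 0.051), and it passed under DESeq2 (-0.19, adjusted p = 0.041) and when several single libraries were left out (lowest adjusted p = 0.014, without B16F10 control replicate 1). Intervals for Clk2 (-0.15 to 0.22), Srpk1 (-0.23 to 0.01) and Srpk2 (-0.09 to 0.12) included 0.

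Before treatment the lines already differed in their kinases. In B16F0 against Melan-A, 5 kinases were higher and 3 lower, against 35.3% and 40.6% of all genes tested. Srpk1 was 2.18-fold higher in B16F0 (log2 difference 95% interval 1.04 to 1.21, adjusted p = 5.9e-21), Clk2 1.94-fold (adjusted p = 1.7e-14), Clk3 1.5-fold (adjusted p = 1.4e-12) and Srpk2 1.28-fold (adjusted p = 3.1e-10). Dyrk1a was lower, at 0.702 of the Melan-A level (adjusted p = 8.4e-15), and Prpf4b at 0.897 (adjusted p = 0.0001). The small differences of Clk1 (0.13, adjusted p = 0.011) and Clk4 (-0.14, adjusted p = 0.011) did not hold for every library. Without Melan-A control replicate 2 the values were 0.08 (adjusted p = 0.19) and -0.12 (adjusted p = 0.08). Without B16F0 control replicate 1 the Clk1 value was 0.07 (adjusted p = 0.28), and without B16F0 control replicate 2 the Clk4 value was -0.09 (adjusted p = 0.19). Clk1 also missed the threshold under DESeq2 (0.10, adjusted p = 0.095).

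Untreated B16F10 had 3 kinases higher and 3 lower than Melan-A, against 33.4% and 40.8% of all genes tested. Clk1 and Clk4 were at 0.614 and 0.626 of the Melan-A level (adjusted p = 1.2e-13 and 5.3e-13) and Prpf4b at 0.82 (adjusted p = 7.2e-09), while Clk3 was 1.51-fold higher (adjusted p = 1.7e-12). Clk2 was 1.18-fold and Srpk2 1.11-fold higher (adjusted p = 0.0016 and 0.00052). Srpk1 (log2 difference 0.08, 95% interval -0.01 to 0.16) and Dyrk1a (0.00, -0.06 to 0.07) were not called. For Srpk1 this rested on the Melan-A controls, which were 59 and 66.7 CPM: without replicate 2 the difference was 0.17 (adjusted p = 0.0005), and without replicate 1 it was 0.00 (adjusted p = 0.95).

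Within the B16 pair, 1 kinase was higher and 6 lower in untreated B16F10 than in untreated B16F0, against 30.8% and 31.2% of all genes tested. Srpk1 was at 0.483 of the B16F0 level (adjusted p = 1.5e-19), Clk1 at 0.56 (adjusted p = 4.8e-15), Clk2 at 0.609 (adjusted p = 3.5e-11) and Clk4 at 0.688 (adjusted p = 2.2e-10). Srpk2 and Prpf4b were at 0.866 and 0.913 (adjusted p = 1.2e-05 and 0.0013). Dyrk1a was 1.43-fold higher (adjusted p = 2.5e-14), and Clk3 was not called (0.00, 95% interval -0.09 to 0.10). These untreated comparisons share control libraries with each other and with the treatment comparisons.

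With the exon union as length, Prpf4b had the highest untreated level of the 8 kinases in Melan-A (13.7 RPKM) and B16F0 (12.3 RPKM), and in B16F10 it overlapped with Dyrk1a (11.2 and 11.3 RPKM). Dyrk1a followed in Melan-A at 11.3 RPKM, Srpk1 in B16F0 at 11.1 RPKM. Clk1, Clk4, Srpk2 and Srpk1 formed a run in Melan-A controls, at 5.67, 5.36, 5.3 and 5.08 RPKM, in which each neighbour overlapped with the next. Clk3 was last there at 3.6 RPKM, close to Clk2 at 3.67 RPKM, and Clk4 was last in B16F0 (4.88 RPKM) and in B16F10 (3.36 RPKM). After SX-682, on the same scale, Dyrk1a had the highest level in Melan-A (13.2 RPKM) and B16F10 (15.8 RPKM), and in B16F0 it overlapped with Clk1, both at 12.5 RPKM. Clk4, last before treatment in B16F0, ranked behind only Dyrk1a and Clk1 after it, at 10.8 RPKM. Prpf4b, first or level with the first before treatment, ranked below 4 other kinases in both B16 lines after it, at 8.22 and 5.99 RPKM. The order depends on the length used. With the longest transcript, Dyrk1a led the Melan-A controls (16.1 RPKM, against 14.7 for Prpf4b) and the B16F10 controls (16.2 RPKM), and Srpk1 led B16F0 both untreated (27.7 RPKM, against 13.2 for Prpf4b) and treated (24.3 RPKM, against 20.9 for Clk1). The last place in the Melan-A controls went to Clk2 with the longest transcript (6.14 RPKM, against 7.37 for Clk3). Dyrk1a led treated Melan-A and B16F10, and Clk4 was last in both B16 controls, with either length.

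**Figure D4:**
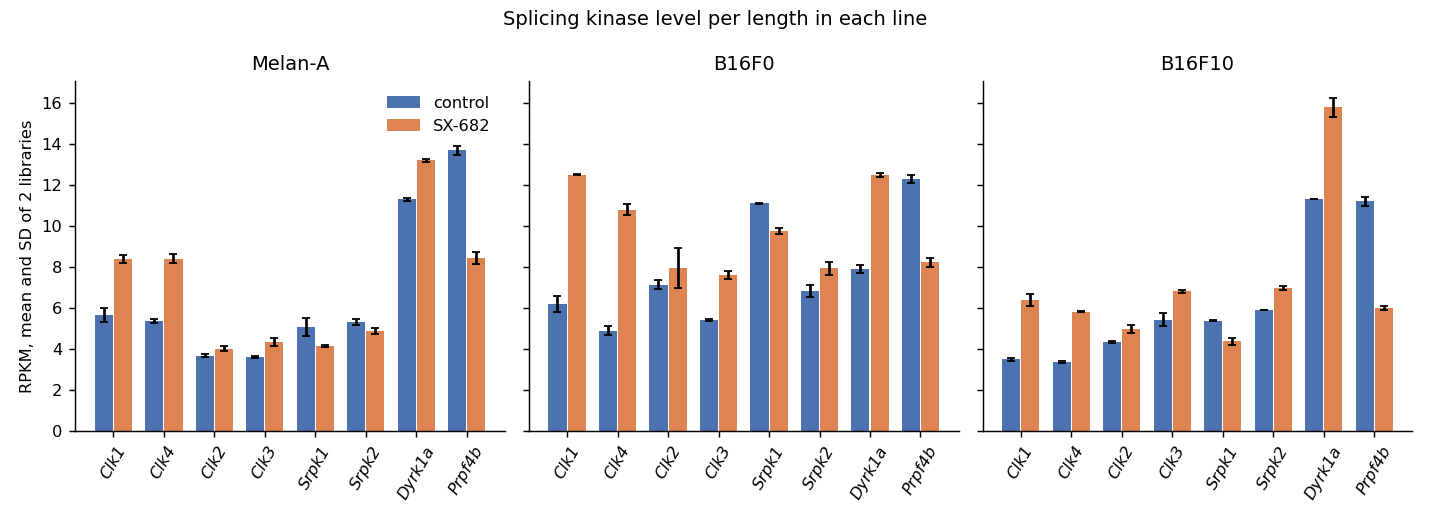
Level of each kinase per exon-union length in RPKM (y axis, bars from 0, mean with SD of 2 libraries) in Melan-A, B16F0 and B16F10, with controls in blue and SX-682 in orange. Prpf4b is the tallest control bar in Melan-A (13.7 RPKM) and B16F0 (12.3 RPKM), and Dyrk1a is the tallest SX-682 bar in Melan-A (13.2 RPKM) and B16F10 (15.8 RPKM), while with the longest transcript as length Dyrk1a leads the Melan-A controls and Srpk1 the B16F0 controls.

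The substrates of these kinases were examined as a list of 15 SR proteins and their partners. Srsf12 among them had 0 counts in every Melan-A library. Like the lists below, this list was chosen with earlier results of these data known, so its counts only describe it. Melan-A had 0 higher and 13 lower after SX-682, B16F0 3 and 10, and B16F10 1 and 12, and the median log2 fold changes were -0.36, -0.34 and -0.63. Of all genes tested, 23.4%, 25.1% and 25.5% were higher and 24.7%, 25.0% and 25.3% lower in these lines. Of the 15, 10 were lower in all 3 lines, against 11.7% of all genes, and 0 were higher in all 3, against 11.3%. Srsf2, an exonic enhancer-binding SR protein, had 205 ± 5.8 CPM (SD, n = 2) in Melan-A controls and 89.2 ± 0.29 after treatment, a log2 fold change of -1.20 (adjusted p = 6.6e-24), and the B16F0 and B16F10 values were -1.29 and -1.56. Srsf3, which also works in mRNA export, had log2 fold changes of -0.66, -0.61 and -0.80, and Srsf7 had -0.37, -0.40 and -0.80. Srsf5 fell most in B16F10 (-0.36, -0.50 and -1.03), as did Tra2a, a splicing activator (-0.65, -0.29 and -1.09). Srsf4 went the other way in B16F10 (0.19, adjusted p = 0.018) and was not called in Melan-A (-0.02, adjusted p = 0.81) or B16F0 (0.14, adjusted p = 0.083). Srrm2, a large scaffold protein of speckles, was lower in Melan-A and B16F10 (-0.28 and -0.31) and higher in B16F0 (0.21, adjusted p = 1e-07).

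Of 9 kinases related to the CLK and DYRK families, Melan-A had 3 higher and 2 lower, B16F0 2 and 1, and B16F10 3 and 1, with medians of 0.05, 0.01 and 0.05 on the log2 scale. These counts are near the shares of all genes tested, which were 23.4%, 25.1% and 25.5% higher and 24.7%, 25.0% and 25.3% lower. Dyrk1b, the close paralog of Dyrk1a, was the only one of the 9 higher in all 3 lines, a pattern of 11.3% of all genes tested. It had 19.6 ± 0.31 CPM in Melan-A controls and 34.9 ± 0.2 after SX-682, 8.49 ± 0.55 and 11.4 ± 1.1 CPM in B16F0, and 18.8 ± 0.34 and 36.8 ± 0.56 CPM in B16F10 (SD, n = 2 each). Its log2 fold change was 0.83, 0.42 and 0.97, so it rose least in the line in which Dyrk1a rose most (among lines, adjusted p = 0.00011). Dyrk2 and Dyrk3 rose in Melan-A (0.37 and 0.45, adjusted p = 3.1e-08 and 0.00011) and were not called in either B16 line. Hipk2 fell in Melan-A (-0.29) and rose in B16F0 (0.34) and B16F10 (0.16), and Hipk1 was not called in any line (95% intervals within -0.07 to 0.12). Calls among the 9 also include 2 genes of very low counts, named here after their values were seen: Dyrk4 in B16F10, with 1 and 2 counts in the controls and 16 and 20 after treatment, and Hipk4 in B16F0, with 25 and 33 counts and then 5 and 13.

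The third list held 12 other kinases, phosphatases and transport factors that act on SR proteins. Melan-A had 0 higher and 10 lower, B16F0 2 and 8, and B16F10 1 and 8, with medians of -0.22, -0.22 and -0.22. Among all genes tested, 23.4%, 25.1% and 25.5% were higher and 24.7%, 25.0% and 25.3% lower in these lines. Top1, the topoisomerase that also phosphorylates SR proteins, had log2 fold changes of -0.64, -0.26 and -0.52. Tnpo3, the importin that carries phosphorylated SR proteins into the nucleus, had -0.22, -0.36 and -0.52, and the phosphatase gene Ppm1g had -0.39, -0.26 and -0.32. Ppp1r8, a nuclear subunit that directs protein phosphatase to splicing factors, had -0.18, -0.42 and -0.25. All these were called lower in all 3 lines. The transcription-linked kinase genes moved differently between lines: Cdk12 had -0.37, 0.32 and -0.12 (all called), Cdk11b -0.21, -0.13 and 0.28 (all called), and Cdk13 was called only in B16F10 (-0.20).

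**Figure D5:**
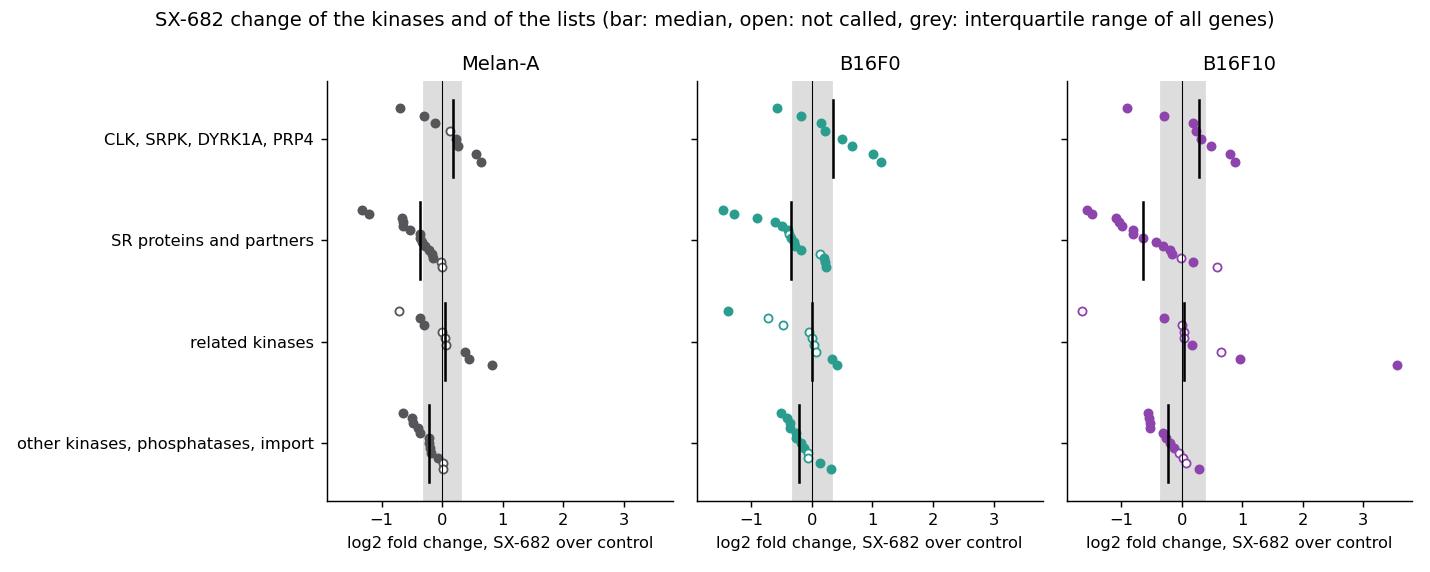
Log2 fold change of SX-682 over control (x axis) for the 8 kinases and the 3 lists (rows) in each line, with 1 point per gene, open where not called, a black bar at the median and a grey band for the interquartile range of all genes tested. The SR protein points lie mostly left of 0 (medians -0.36, -0.34 and -0.63), and the 8 kinases spread to both sides.

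For each kinase, all 10957 genes with a mean log2 CPM of at least 1 were ranked by how closely their profile over the 12 libraries followed it. The measure was the root mean square of the differences after centring on the log2 scale. Clk4 was among the 2 nearest genes to Clk1 (0.12), beside Akap6 (0.12), and Clk1 was the nearest to Clk4 (0.12), followed by Idua (0.13). The nearest to Dyrk1a were Rsf1 (0.07) and Rbm22 (0.076), to Prpf4b Usp12 (0.068) and Rcc1 (0.076), and to Srpk2 Cpsf1 (0.062) and Aldh3a2 (0.065). Clk2 was followed most closely by Mid1ip1 (0.075) and Ralgapa1 (0.095), Clk3 by Tango6 (0.076) and Rpl39 (0.079), and Srpk1 by Acly and Echdc1 (both 0.11). No other kinase of the 8 was among the 2 nearest genes to Clk2, Clk3, Srpk1, Srpk2, Dyrk1a or Prpf4b.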

How the data were processed

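RNA was extracted from cultured cells and sequenced by the authors, who deposited raw counts of reads per gene, with gene length and coordinates. Per the labels' processing notes, cutadapt, STAR, DESeq2 and mm10 were used; versions, the counting program and its strand setting are not given in the sources used here. Of 34513 identifiers, 33821 were in GENCODE M21 with the same version and coordinates, and there the deposited length equalled the exon union.

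Counts were analysed with edgeR 4.0.16 in R 4.3.3 (TMM scaling, filterByExpr, quasi-likelihood F-tests, prior count 0.125, Benjamini-Hochberg, threshold 0.05) on all 12 libraries in 1 fit of 6 groups. Group values are TMM-scaled CPM and RPKM. The biological coefficient of variation was 2.78%, with 6 residual and 21.9 prior degrees of freedom. A permutation of 2 against 2 libraries could not go below p = 0.333. Replicates differed by 2.82 to 4.97 in chi-square per gene, so none was a repeat deposit. The script was tested on simulated counts with 200 changed genes. Alternatives were DESeq2 1.42.0, RLE scaling, other filters, separate fits, a replicate block and leaving out each library.

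The 8 kinases and the gene lists were chosen with earlier results of these data known. Named were all 8, a fixed subset of the lists, and the 2 nearest genes to each kinase. Library totals were 48876982 to 85322092 counts, and every sample column was matched to its library by name.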

Additional observations from a re-analysis of the deposited data

Results flagged for a closer look

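The SX-682 change of 6 kinases differed among the 3 lines in the F-test of that difference, and the values are therefore set out here once more by size. The range of the log2 fold change over the lines was 0.499 for Clk4, 0.444 for Clk1, 0.438 for Dyrk1a, 0.362 for Srpk2, 0.328 for Prpf4b and 0.226 for Clk3. For Srpk2 the lines moved in opposite directions, lower in Melan-A and higher in B16F0 and B16F10. The Clk3 difference passed with the smallest margin (adjusted p = 0.012 in edgeR), and the adjusted p ranged from 0.0049 to 0.065 over its alternatives.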

How the results depend on the processing

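Of 1008 recomputed values of single kinases, 963 kept their direction and their side of the threshold. A minimum absolute log2 fold change of 0.5 left 3 kinases called in Melan-A, 4 in B16F0, 3 in B16F10, 3 in all lines, 0 whose change differed between B16F10 and B16F0, and 4 and 3 for untreated B16F0 and B16F10 against Melan-A. It left 2989, 3561 and 3944 genes called by SX-682. Fitting only the libraries compared gave 5 kinases for the difference between the B16 lines. With the longest transcript as length, the Clk1 share was 31% in treated B16F0 and 19.6% and 25.2% in untreated and treated B16F10. Values near 0 changed sign. The Srpk2 difference between the B16 lines was -0.00495 under RLE scaling, -0.00478 under DESeq2, -0.00164 with at least 10 counts in every library, -0.000622 in the separate fit and -0.0328 to 0.0599 without single libraries. That of Clk2 was -0.0934 to 0.159 without single libraries. The untreated difference between B16F10 and Melan-A was -0.00365 to 0.174 for Srpk1 without single libraries, and for Dyrk1a -0.0281 under RLE scaling and under DESeq2 and -0.0633 with at least 10 counts. The untreated Clk3 difference between the B16 lines was -0.019 with at least 10 counts and -0.0485 to 0.0708 without single libraries. The cause was not tested. Replicate numbers did not pair the libraries (correlation of deviations -0.0276, -0.0112 and -0.00892), and the fit with a replicate block changed no call of a kinase, with 7, 8 and 8 called in Melan-A, B16F0 and B16F10. The 2 libraries per group limit what small changes such as that of Clk2 can show.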
